A study of Mus musculus with 3 samples.

Results

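The CC chemokine genes Ccl3, Ccl4, Ccl6 and Ccl9 were followed through single-cell RNA sequencing of mouse liver. They are 4 of the 19091 genes listed in the count files and were chosen by name, because earlier results of the same data had shown their levels to differ between the libraries and between cell classes. The levels and fold values below are therefore a description of these libraries and carry no test. Liver of adult C57BL/6 mice was profiled by Drop-seq, in which a cell and a barcoded bead share a droplet and every captured transcript is counted once by its unique molecular identifier (UMI). Irreversible electroporation (IRE), which kills the cells of a confined area with electric pulses, was applied as 8 pulses of 50 ms with 1 s between pulses. The tissue was taken with a 4 mm punch, digested with enzymes and freed of red blood cells. The control library is labelled as sham surgery with tissue taken after 1 day, from the matching uninjured area, and the other libraries as IRE with tissue taken at 1 day or 7 days post-injury. The livers of several mice were pooled for a library, so that animals cannot be told apart. Each label has 1 library and there is no replicate, and all intervals are 95% intervals that cover counting error only.

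CC chemokines are small secreted proteins that attract leukocytes through G protein-coupled receptors. Ccl3 and Ccl4 (macrophage inflammatory proteins 1-alpha and 1-beta) are made by activated neutrophils, macrophages, natural killer (NK) cells and T cells, and Ccl3 acts through Ccr1. Ccl6 and Ccl9 are rodent chemokines of the myeloid lineage, found in macrophages and granulocytes without strong activation, and also act through Ccr1.

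A barcode counted as a cell from 200 detected genes upwards. This gave 10386 cells with 8013800 UMIs in the library labelled control, 9253 cells with 6107866 UMIs in the one labelled IRE 1 day and 5624 cells with 3058967 UMIs in the one labelled IRE 7 days. The median depth lay between 456.5 and 595 UMIs per cell, and any pair of libraries shared between 44 and 149 barcodes. The cell makeup went against the order of the labels. Col1a1, the main fibrillar collagen of scar-forming cells, stood at 232 UMIs per 1000000 UMIs (CPM) in the control library and at 2.78 and 2.61 CPM at 1 and 7 days, and Gpnmb, a gene of lipid-laden macrophages, at 439, 3.11 and 125 CPM. Hepatocyte, Kupffer cell and sinusoidal endothelial transcripts, known from intact liver, were highest in the library labelled IRE 1 day, with Alb at 11571 CPM there against 533 CPM in control and 108 CPM at 7 days, and Clec4g at 1008, 306 and 41.8 CPM. S100a8 of neutrophils was at 1830 CPM in control, 288 CPM at 1 day and 19867 CPM at 7 days. The groups were kept as labelled, and a library is called here by its label only. With 1 library per label no value can be repeated without a doubted library, and the ratios over all cells are given for all 3 pairs.

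All 4 chemokines were highest in the library labelled IRE 7 days and lowest in the library labelled IRE 1 day. Ccl3 stood at 53.4 CPM in control (exact Poisson interval 48.5 to 58.7), at 26.0 CPM at 1 day (22.1 to 30.4) and at 582 CPM at 7 days (555 to 609). Ccl4 was measured at 55.8 CPM (50.7 to 61.2), 29.3 CPM (25.2 to 33.9) and 943 CPM (909 to 978). Ccl6 was the most abundant member in every library, with 514 CPM (498 to 530), 339 CPM (324 to 354) and 4861 CPM (4783 to 4940). Ccl9 gave 145 CPM (137 to 154), 37.5 CPM (32.8 to 42.7) and 1587 CPM (1542 to 1632). No interval of a member overlapped between libraries. The share of all genes with such intervals was not determined, so that this cannot be called particular to the members. At 7 days Ccl6 was the 14th most abundant of 14599 detected genes, against the 223rd of 17241 in control. Ccl9 moved from rank 927 to rank 68, Ccl4 from 2625 to 157 and Ccl3 from 2728 to 276.

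**Figure D1:**
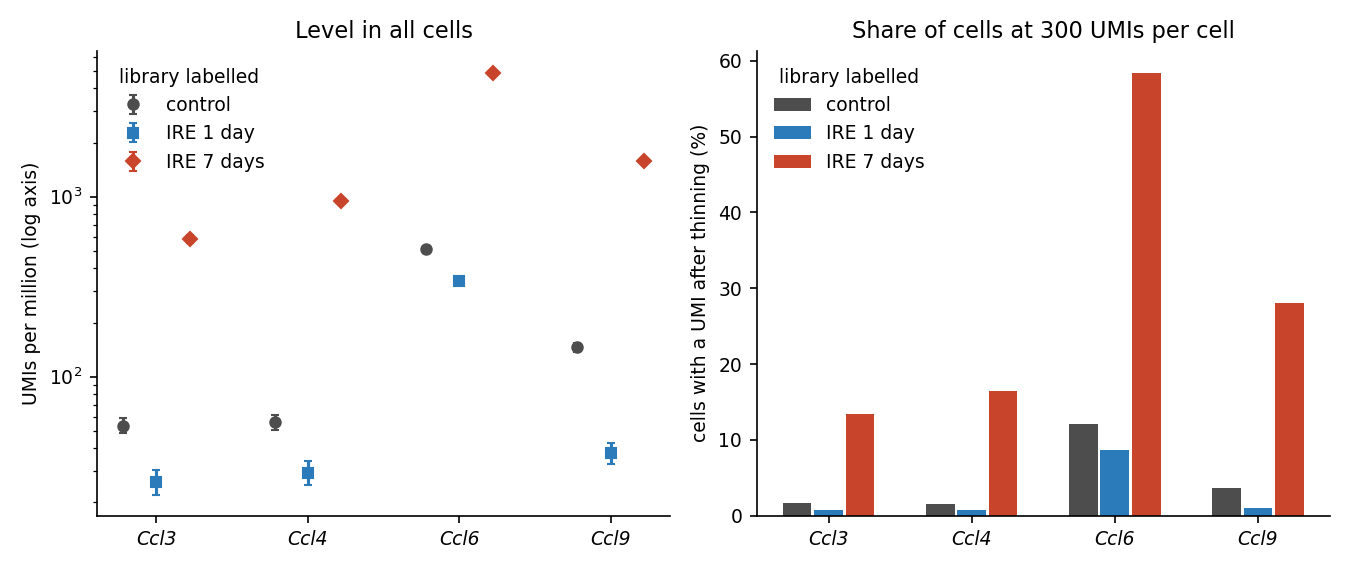
Level of the 4 chemokine genes in all cells of each library in CPM on a log axis with exact Poisson intervals (left), and share of cells with at least 1 UMI after thinning every cell to 300 UMIs (right). In both panels the library labelled IRE 7 days is highest for each gene, with Ccl6 at 4861 CPM and in 58.4% of thinned cells.

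Against control, the library labelled IRE 7 days held 10.9 times as much Ccl3 (interval 9.79 to 12.1), 16.9 times as much Ccl4 (15.3 to 18.7), 9.46 times as much Ccl6 (9.14 to 9.79) and 10.9 times as much Ccl9 (10.2 to 11.6). All 4 were past a 2-fold rise, as were 8.79% of the 10227 genes with at least 50 UMIs in the pair, and the members took ranks 51 to 101 from the top of these genes. Against the library labelled IRE 1 day the ratios were 22.3 for Ccl3, 32.2 for Ccl4, 14.3 for Ccl6 and 42.3 for Ccl9, where 11.6% of 10271 genes were at least 2-fold higher. Between the library labelled IRE 1 day and control, Ccl9 (0.258, 0.223 to 0.297) and Ccl3 (0.487, 0.404 to 0.586) were past a 2-fold fall, as were 5.86% of 11357 genes, whereas Ccl4 at 0.525 (0.439 to 0.626) and Ccl6 at 0.660 (0.625 to 0.695) were not. The ratio of Ccl3 lay next to the 2-fold limit and was 0.504 with at least 400 genes per barcode, 0.518 with at most 20% mitochondrial UMIs and 0.516 with mitochondrial, haemoglobin and hepatocyte-marker genes left out of the total. These pairs share libraries and are not independent of each other. In a sum over a whole library, more cells of a type and more RNA per cell cannot be told apart. Genes of the response to tissue handling, such as Fos and Jun, took 0.215% of UMIs in control, 0.132% at 1 day and 0.461% at 7 days. Mitochondrial transcripts took 20.5%, 21.7% and 4.10%. The part of handling and RNA quality in the chemokine levels was not tested.

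Cells with at least 1 UMI followed the same order. Ccl6 was detected in 23.6% of control cells, 15.7% at 1 day and 68.5% at 7 days, and Ccl9 in 8.25%, 2.16% and 37.4%. Ccl3 was detected in 3.31%, 1.48% and 20.1% of cells, and Ccl4 in 3.14%, 1.40% and 23.2%. After every cell had been thinned to 300 UMIs, the shares at 7 days were 13.4% for Ccl3, 16.5% for Ccl4, 58.4% for Ccl6 and 28.1% for Ccl9, against 1.72%, 1.51%, 12.1% and 3.70% in control and 0.771%, 0.804%, 8.63% and 0.949% at 1 day. The difference in detection was therefore present at equal depth. Thinning left out 209 control cells, 298 cells at 1 day and 545 cells at 7 days. Single cells at 7 days held up to 12 UMIs of Ccl3, 30 of Ccl4, 53 of Ccl6 and 19 of Ccl9.

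The 4 genes lie side by side in a cluster of chemokine genes. Among protein-coding genes of chromosome 11 in RefSeq the order was Ccl5, Ccl9, Ccl6, Ccl3, Ccl4 and Wfdc17. RefSeq promoter windows were at hand for Ccl9, Ccl6 and Ccl3. They are shown because neighbouring members moved together, as the 250 bases before the annotated start on the minus strand of GRCm38.p6, 5′ to 3′, for Ccl9 at chr11:83578637-83578886, Ccl6 at chr11:83593088-83593337 and Ccl3 at chr11:83649379-83649628. Capitals mark the bases that are identical in the stretch over which the Ccl6 and Ccl9 windows align.
Ccl9: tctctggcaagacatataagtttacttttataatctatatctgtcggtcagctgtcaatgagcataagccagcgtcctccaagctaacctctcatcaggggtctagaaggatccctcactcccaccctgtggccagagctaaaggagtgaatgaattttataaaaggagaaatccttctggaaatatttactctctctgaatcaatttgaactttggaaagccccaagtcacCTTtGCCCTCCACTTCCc
Ccl6: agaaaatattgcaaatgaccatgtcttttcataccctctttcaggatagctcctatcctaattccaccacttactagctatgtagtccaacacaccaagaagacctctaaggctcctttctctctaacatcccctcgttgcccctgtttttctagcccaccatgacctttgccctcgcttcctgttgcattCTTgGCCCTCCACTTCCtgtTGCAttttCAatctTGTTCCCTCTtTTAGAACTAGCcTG
Ccl3: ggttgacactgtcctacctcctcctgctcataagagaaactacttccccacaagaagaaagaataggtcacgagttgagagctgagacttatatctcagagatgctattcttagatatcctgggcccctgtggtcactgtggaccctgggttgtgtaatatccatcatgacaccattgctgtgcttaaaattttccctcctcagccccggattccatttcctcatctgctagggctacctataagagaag

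The alignment of Ccl6 and Ccl9 held gaps and continued past the annotated start. It paired 67 bases, of which 58 were identical (86.6%), with bases opposite gaps left out of this share. Between Ccl3 and either of them no more than 12 bases were paired. In the full windows of 300 bases, which also hold the first 50 bases of the transcript, the letters ACTTCC (an ETS core) occurred once in each of the 3 genes and in 23.8% of all 32851 promoter windows. All motifs were searched on both strands. Within the Ccl9 window, TATAAA matched 1 time as read and 2 times as its reverse complement, once across the same bases (13.6% of all windows held it on either strand), TGANTCA (AP-1) 1 time (7.81% of windows) and the NF-kB motif 1 time (4.51% of windows). None of these was found in the windows of Ccl6 and Ccl3, and TTCNNNGAA (STAT, 8.30% of windows) in none of the 3. The longest run of bases shared by the transcripts was 25 for Ccl6 and Ccl9 and 9 to 12 for the other pairs, so that identical runs were short in relation to the GENCODE transcripts compared, which had 660 to 3006 bases.

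To see which cells held the transcripts, each cell was given the class for which it had the most distinct detected markers, with at least 2 markers and no tie. Between 73.4% and 77.1% of the cells of a library were placed. Levels are described for classes of at least 50 cells, called "-like" because they rest on markers alone. At 7 days the neutrophil-like gate held 2420 cells, the monocyte-like gate 942, the macrophage-like gate 668, the Kupffer-like gate 146, the T-like gate 67 and the endothelial-like gate 55. Control held 1557 Kupffer-like, 1520 endothelial-like, 1518 monocyte-like, 1006 macrophage-like and 378 neutrophil-like cells, and the library labelled IRE 1 day 3664 endothelial-like, 2534 Kupffer-like, 86 monocyte-like and 63 neutrophil-like cells but only 24 macrophage-like cells. Cells with exactly 2 markers and a lead of 1 marker made up 10.2% to 16.5% of a library. The gates were not free of transcripts of other cells. At 7 days the 10 neutrophil markers summed to 84536 CPM in the neutrophil-like gate and still to 12633 CPM in macrophage-like, 15116 CPM in monocyte-like, 11979 CPM in Kupffer-like, 11157 CPM in T-like and 19103 CPM in endothelial-like cells, where at least 9 of the 10 were detected. In control the same sums in the other gates were 1055 to 2737 CPM.

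**Figure D2:**
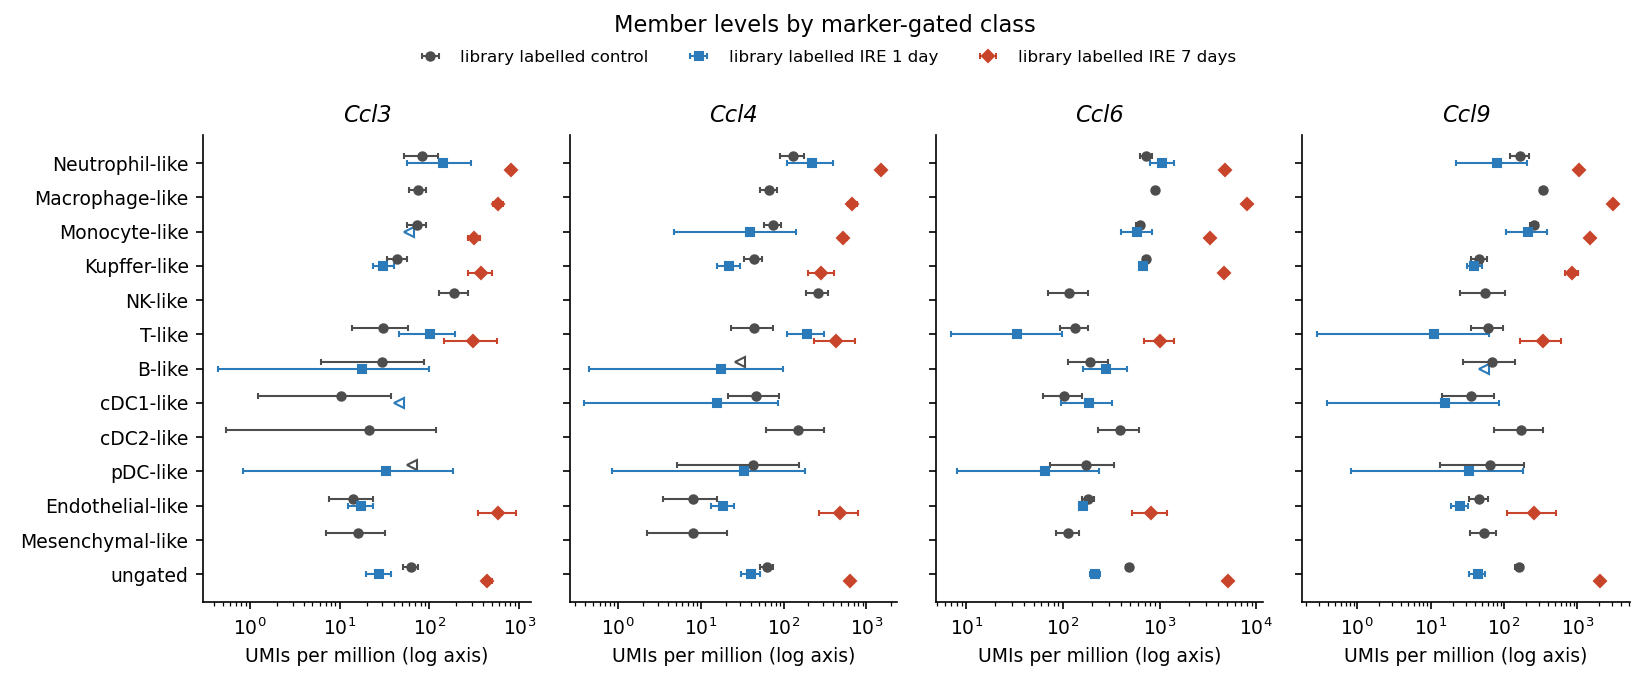
Level of each chemokine gene in CPM (log axis) in every marker-gated class of at least 50 cells, with exact Poisson intervals, and open triangles at the 3-count floor where no UMI was found. The library labelled IRE 7 days lies above the control library in every class that both hold, and NK-like cells lead Ccl3 and Ccl4 in control.

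Among classes of at least 50 cells, Ccl3 and Ccl4 had different leading cells in control and at 7 days. NK-like cells numbered only 15 at 7 days and were left out there. They held 6 UMIs of Ccl3, or 995 CPM (365 to 2166), and 3 of Ccl4, or 498 CPM (103 to 1454). Whether they still led at 7 days can therefore not be told. In control, NK-like cells (236 cells) led, with 190 CPM of Ccl3 (interval 129 to 270) and 258 CPM of Ccl4 (186 to 348). Neutrophil-like cells were second for Ccl3 with 82.3 CPM (52.1 to 123). For Ccl4 they stood at 129 CPM (90.2 to 178), beside 151 CPM (60.5 to 310.2, 7 UMIs) in the 63 cells like conventional dendritic cells of type 2. The Ccl3 interval of neutrophil-like cells overlapped those of macrophage-like cells at 74.9 CPM (59.6 to 93.0) and monocyte-like cells at 72.7 CPM (56.9 to 91.5), so that these 3 myeloid classes were not separated by counting error. Kupffer-like cells, the resident macrophages of the liver, stood at 44.2 CPM of Ccl3 (34.2 to 56.2), below macrophage- and monocyte-like cells. Their interval overlapped the lower end of the neutrophil-like interval. Endothelial-like cells, which are not a known source, held 14.1 CPM of Ccl3 (7.71 to 23.7) and 8.06 CPM of Ccl4 (3.48 to 15.9).

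At 7 days neutrophil-like cells led both genes among classes of at least 50 cells. They held 813 CPM of Ccl3 (764 to 865) and 1486 CPM of Ccl4 (1419 to 1556). Ccl3 was lower in macrophage-like cells at 580.2 CPM (507 to 662) and lower again in monocyte-like cells at 313 CPM (268 to 364). Ccl4 showed the same order, with 679 CPM (599 to 767) and 522 CPM (463 to 586). Kupffer-like cells held 374 CPM of Ccl3 (271 to 504) and 287 CPM of Ccl4 (198 to 403). Endothelial-like cells gave 582 CPM of Ccl3 (345 to 920) from 18 UMIs, of which 9 lay in 1 cell, and the level without that cell was 296 CPM (135 to 562). With that cell, the endothelial-like interval overlapped those of the neutrophil-like and the macrophage-like cells, and without it only the latter. The macrophage- and endothelial-like gates both held neutrophil transcripts.

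In the library labelled IRE 1 day the numbers were small. Neutrophil-like cells held 7 UMIs of Ccl3, or 141 CPM (56.8 to 291), and 11 of Ccl4, or 222 CPM (111 to 397). A single cell held 6 of these UMIs of Ccl4, and 102 CPM (33.1 to 238) remained without it. For Ccl3 the cell with the most held 3 UMIs, and 81.3 CPM (22.1 to 208) remained without it. T-like cells reached 190 CPM of Ccl4 (111 to 305) from 17 UMIs, of which a single cell held 12, and 56.4 CPM (18.3 to 132) remained without that cell. The same cell held 7 of the 9 UMIs of Ccl3 in the class. Kupffer-like cells stood at 30.8 CPM of Ccl3 (23.3 to 39.9) and 22.2 CPM of Ccl4 (15.9 to 30.1). Monocyte-like cells held 0 UMIs of Ccl3, where 3 counts would be 58.7 CPM and the exact interval reached 72.2 CPM.

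Ccl6 and Ccl9 were led by macrophage-like cells in control and at 7 days, among classes of at least 50 cells. At 7 days macrophage-like cells held 8021 CPM of Ccl6 (7740 to 8309) and 3078 CPM of Ccl9 (2905 to 3258), above every other class of at least 50 cells. For Ccl6 neutrophil-like cells at 4750 CPM (4629 to 4874) and Kupffer-like cells at 4658 CPM (4271 to 5069) came next with overlapping intervals, followed by monocyte-like cells at 3328 CPM (3177 to 3483). For Ccl9 monocyte-like cells were second with 1485 CPM (1385 to 1591), above neutrophil-like cells at 1059 CPM (1002 to 1118) and Kupffer-like cells at 844 CPM (685 to 1030), whose intervals overlapped. Among classes of at least 50 cells, neutrophil-like cells were therefore the leading class for Ccl3 and Ccl4 but not for Ccl6 and Ccl9. T-like and endothelial-like cells were the lowest classes, at 1011 and 808 CPM of Ccl6 and 337 and 259 CPM of Ccl9.

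In control, Ccl6 was spread over the myeloid classes, with 904 CPM in macrophage-like cells (849 to 962), 722 CPM in neutrophil-like cells (626 to 829), 719 CPM in Kupffer-like cells (677 to 763) and 624 CPM in monocyte-like cells (576 to 675). The other classes of at least 50 cells held between 103 and 189 CPM, apart from the cells like conventional dendritic cells of type 2 at 387 CPM (229 to 612, 18 UMIs). Ccl9 was uneven among the same myeloid classes, at 343 CPM in macrophage-like (309 to 379), 257 CPM in monocyte-like (227 to 291) and 165 CPM in neutrophil-like cells (120.4 to 219), but at 46.2 CPM in Kupffer-like cells (35.9 to 58.5), no higher than in endothelial-like cells at 45.3 CPM (33.1 to 60.7). In the library labelled IRE 1 day, Kupffer-like cells again combined much Ccl6, 668 CPM (631 to 707), with little Ccl9, 39.5 CPM (30.9 to 49.6).

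Shares of cells at equal depth were set against those of endothelial-like cells. At 7 days and 300 UMIs per cell, Ccl6 was detected in 72.0% of macrophage-like, 63.3% of Kupffer-like, 61.0% of neutrophil-like and 50% of monocyte-like cells, against 28.3% of endothelial-like cells, a class that should lack it. The unthinned shares were 81.0%, 79.5%, 70.5% and 63.0% against 32.7%, with median depths of 502.5, 548, 437, 508.5 and 491 UMIs. All 4 myeloid shares of Ccl6 lay above the endothelial-like interval (16.0 to 43.5%, 46 cells). Ccl9 was found in 50.1% of thinned macrophage-like cells (63.3% unthinned), 29.9% of monocyte-like (42.9%), 20.3% of Kupffer-like (36.3%) and 19.5% of neutrophil-like cells (27.1%), against 8.70% of endothelial-like cells (12.7%). Only the macrophage- and monocyte-like shares of Ccl9 cleared the endothelial-like interval (2.42 to 20.8%). Ccl4 was found in 22.6% of thinned neutrophil-like cells (29.7% unthinned) and 10.5% of monocyte-like cells (17.2%), against 6.52% of endothelial-like cells (12.7%). The corresponding shares of Ccl3 were 17.1% (24.2%), 7.73% (15.1%) and 6.52% (10.9%). The interval of the endothelial-like cells, 1.37 to 17.9% for either gene, was cleared by the neutrophil-like share of Ccl4 (20.9 to 24.4%) alone, and the shares of Ccl3 were not told apart from this background at 300 UMIs.

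**Figure D3:**
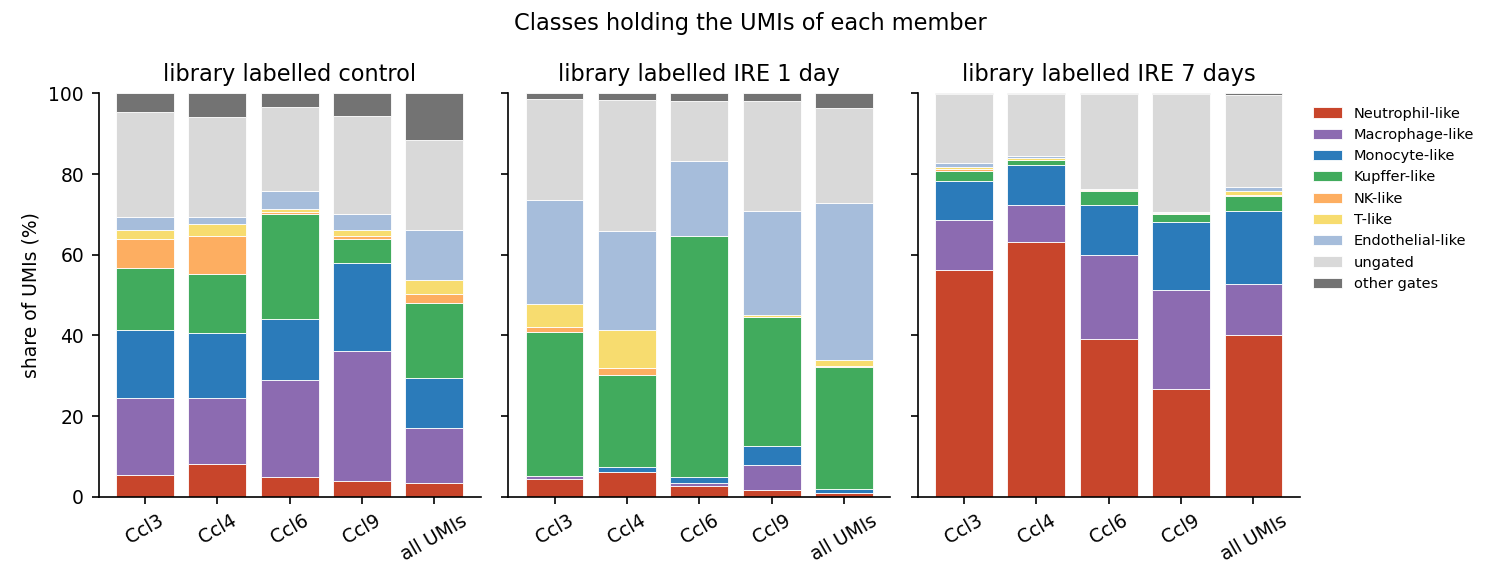
Percent of the UMIs of each chemokine gene, and of all UMIs, that lie in each marker-gated class, for the 3 libraries. At 7 days neutrophil-like cells hold 63.3% of Ccl4 but 26.8% of Ccl9, beside 40.2% of all UMIs, and at 1 day Kupffer-like cells hold 59.7% of Ccl6.

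The classes contributed unequally to the sums. At 7 days neutrophil-like cells held 56.2% of the UMIs of Ccl3 and 63.3% of those of Ccl4, but 39.2% of Ccl6 and 26.8% of Ccl9, beside 40.2% of all UMIs of the library. Macrophage-like cells held 12.5% of Ccl3, 9.05% of Ccl4, 20.7% of Ccl6 and 24.4% of Ccl9 from 12.6% of all UMIs. In control, where neutrophil-like cells held 3.49% of all UMIs, no class held a majority of any member, and macrophage-like cells contributed most among the gates to Ccl9, with 32.2%. In the library labelled IRE 1 day Kupffer-like cells held 59.7% of the UMIs of Ccl6 from 30.3% of all UMIs. Cells left without a class held between 14.9% and 32.4% of a member in any library.

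Within classes, the library labelled IRE 7 days exceeded control for every member. In neutrophil-like cells the ratios were 9.89 for Ccl3 (6.55 to 15.7), 11.5 for Ccl4 (8.31 to 16.5), 6.58 for Ccl6 (5.71 to 7.60) and 6.44 for Ccl9 (4.80 to 8.84), where 23.7% of 3769 genes were at least 2-fold higher. In macrophage-like cells they were 7.75 (5.99 to 10.1), 10.2 (7.83 to 13.4), 8.87 (8.25 to 9.54) and 8.98 (7.99 to 10.1) in the same order, beside 13.9% of 3787 genes. In monocyte-like cells they were 4.31, 7.08, 5.33 and 5.77, beside 13.6% of 3902 genes. In Kupffer-like cells they were 8.47, 6.60, 6.48 and 18.3, beside 7.43% of 4198 genes, and Ccl9 had the second highest ratio of these genes. All 4 members were thus past a 2-fold rise in each of the 4 myeloid gates. The ratios stayed above 1 in T-like cells, with 7.66 for Ccl6 (4.67 to 12.5), and in endothelial-like cells, with 4.43 for Ccl6 (2.79 to 6.75). The neutrophil marker sum rose with them, from 1055 to 12633 CPM in macrophage-like and from 2737 to 15116 CPM in monocyte-like cells. It rose from 1726 to 11979 CPM in Kupffer-like and from 2059 to 19103 CPM in endothelial-like cells. The part of neutrophil transcripts in these gates was not tested. In the neutrophil-like gate the 10 macrophage markers summed to 729.5 CPM in control and 6039 CPM at 7 days. The same sums were 440 and 6927 CPM in monocyte-like and 699 and 2734 CPM in Kupffer-like cells. The part of macrophage transcripts in the values of these gates was not tested either.

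The library labelled IRE 1 day was also set against control within classes. In Kupffer-like cells the ratios were 0.697 for Ccl3 (0.481 to 1.01), 0.509 for Ccl4 (0.336 to 0.765), 0.929 for Ccl6 (0.856 to 1.01) and 0.854 for Ccl9 (0.606 to 1.20), none past a 2-fold fall, beside 4.32% of 6923 genes. In neutrophil-like cells Ccl6 was 1.48 times the control level (1.07 to 2.01). A single cell held 10 of the 53 UMIs of Ccl6 in this gate at 1 day. Without that cell the level was 888 CPM (643 to 1196), and its interval overlapped that of control (626 to 829 CPM). The intervals of the other members included 1, Ccl9 at 0.491 (0.128 to 1.34) being past a 2-fold fall beside 23.5% of 801 genes. The 15 hepatocyte markers summed to 80158 CPM in the 63 neutrophil-like cells at 1 day, above the 24964 CPM of their neutrophil markers, and to 9112 CPM in those of control. In Kupffer-like cells the hepatocyte sum was 32820 CPM at 1 day and 1660 CPM in control, and in monocyte-like cells 17765 and 1290 CPM. The part of hepatocyte transcripts in these ratios was not tested. In monocyte-like cells Ccl6 (0.941, 0.629 to 1.36) and Ccl9 (0.836, 0.412 to 1.52) were not separated from control. Macrophage-like cells made up 9.69% of the cells of the control library and 0.259% at 1 day, and monocyte-like cells 14.6% and 0.929%. Against the library labelled IRE 1 day, neutrophil-like cells at 7 days held 5.76 times the Ccl3, 6.69 times the Ccl4, 4.44 times the Ccl6 and 13.1 times the Ccl9, where 42.8% of 3332 genes were at least 2-fold higher.

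**Figure D4:**
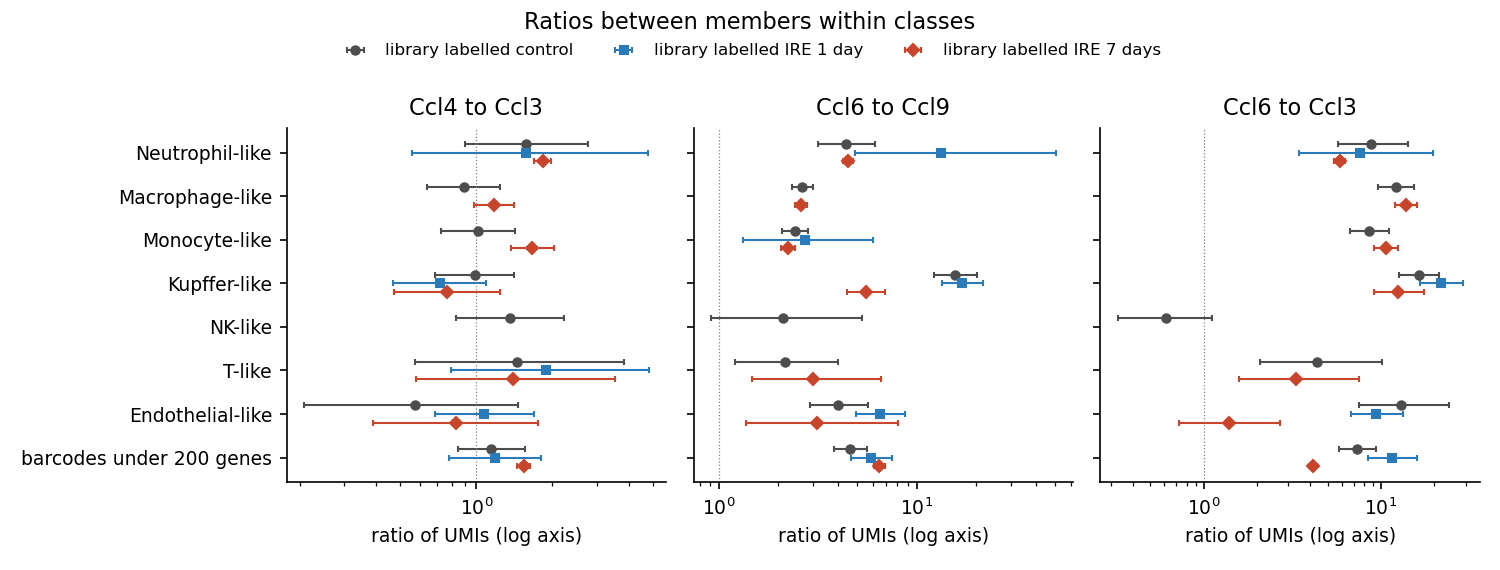
Ratio of the UMIs of one member to those of another (log axis, dotted line at 1) within marker-gated classes and in barcodes under 200 genes, with exact intervals, shown where both counts exceed 3. Ccl6 to Ccl9 is highest in Kupffer-like cells of the libraries labelled control and IRE 1 day, at 15.6 and 16.9. Their intervals overlap that of neutrophil-like cells at 1 day, at 13.25 (4.88 to 50.4).

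Ratios between members do not depend on the total of the library and differed between some classes. Kupffer-like cells held 15.6 UMIs of Ccl6 per UMI of Ccl9 in control (12.2 to 20.2) and 16.9 in the library labelled IRE 1 day (13.4 to 21.7), but 5.52 at 7 days (4.44 to 6.92). Macrophage-like cells stood at 2.64 in control and 2.61 at 7 days, and monocyte-like cells at 2.42 and 2.24. Neutrophil-like cells stood at 4.39 (3.17 to 6.19) and 4.48 (4.22 to 4.77). In the library labelled IRE 1 day they stood at 13.25 (4.88 to 50.4) from 4 UMIs of Ccl9, overlapping the Kupffer-like intervals of control and 1 day. In macrophage-, monocyte- and neutrophil-like cells the intervals of this ratio overlapped between control and 7 days, while both members were several times higher at 7 days. Over all cells at 7 days the ratio was 3.06 (2.97 to 3.16). In Kupffer-like cells the neutrophil markers summed to 1726 CPM in control and 11979 CPM at 7 days, and the macrophage markers to 699 and 2734 CPM. The part of such transcripts in the lower Kupffer-like ratio at 7 days was not tested. At 7 days the ratio of Ccl4 to Ccl3 was 1.83 in neutrophil-like cells (1.69 to 1.98) and 1.66 in monocyte-like cells (1.37 to 2.02), with overlapping intervals, against 1.17 in macrophage-like cells (0.975 to 1.41) and 0.767 in Kupffer-like cells (0.472 to 1.24). NK-like cells of control were the only class of at least 50 cells with fewer UMIs of Ccl6 than of Ccl3, at a ratio of 0.613 (0.327 to 1.12), among the classes in which both counts exceeded 3.

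**Figure D5:**
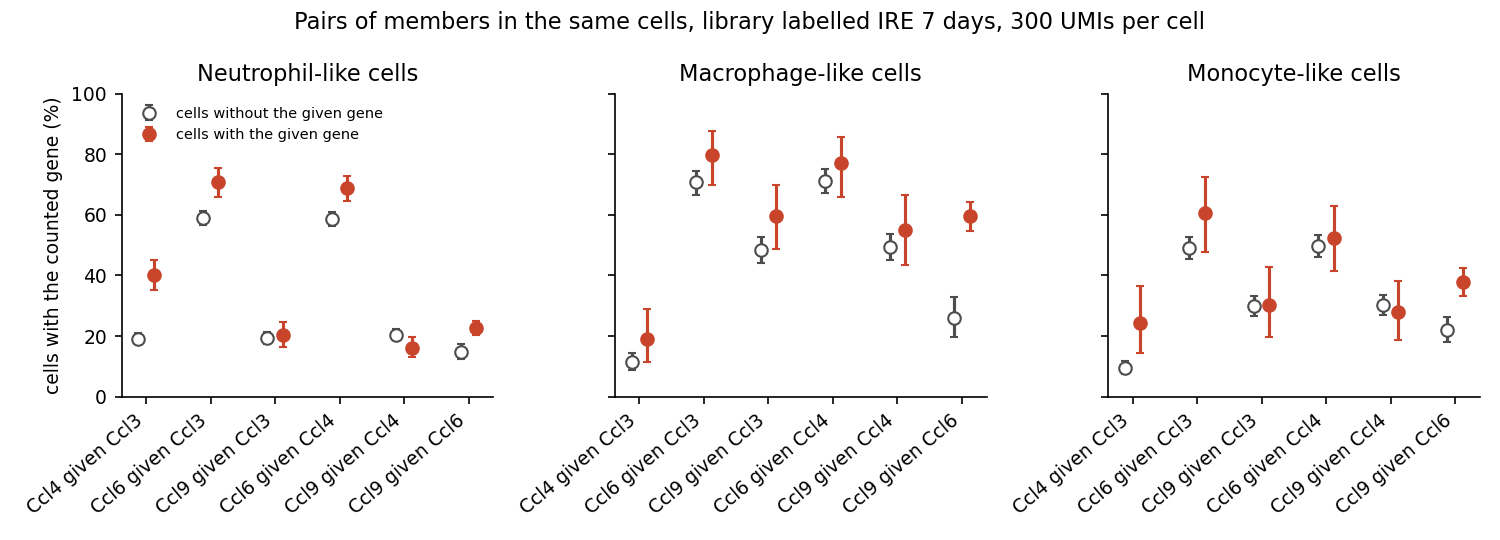
Percent of cells with a UMI of one member among cells with (filled) and without (open) a UMI of another, in neutrophil-, macrophage- and monocyte-like cells of the library labelled IRE 7 days thinned to 300 UMIs, with exact binomial intervals. Ccl4 is found in 40% of neutrophil-like cells with Ccl3 and in 19.1% of those without.

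Members were also paired within single cells. Among thinned neutrophil-like cells at 7 days, Ccl4 was found in 40% of the 380 cells with Ccl3 (35.0 to 45.1%) and in 19.1% of the 1842 cells without (17.3 to 20.9%). Ccl9 was found in 20.3% and 19.3% of the same cells, with overlapping intervals. Ccl6 was found in 70.8% of cells with Ccl3 and 59.0% of cells without. In macrophage-like cells the pairing was strongest for Ccl6 and Ccl9, with Ccl9 in 59.5% of cells with Ccl6 (54.8 to 64.1%) and in 25.9% of cells without (19.5 to 33.0%), whereas Ccl4 was found in 19.1% of cells with Ccl3 (11.5 to 28.8%) and 11.5% without (8.89 to 14.5%), with overlapping intervals. In neutrophil-like cells Ccl9 was found in 22.5% of cells with Ccl6 (20.3 to 24.8%) and 14.8% of cells without (12.5 to 17.3%). In monocyte-like cells Ccl4 was found in 24.2% of cells with Ccl3 against 9.39% without, and Ccl9 in 37.7% of cells with Ccl6 against 22% without. Cells are not replicates, and these shares describe a single library.

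In neutrophil-like cells at 7 days the transcripts of Ccl4 were the most concentrated in few cells. The 10% of these cells with the most UMIs of the gene held 69.8% of Ccl4, 65.6% of Ccl3, 66.4% of Ccl9 and 43.5% of Ccl6. At 300 UMIs per cell the variance exceeded the mean 3.71 times for Ccl4, 1.94 times for Ccl3, 1.84 times for Ccl9 and 2.52 times for Ccl6. Counts of at least 5 UMIs were seen in 374 neutrophil-like cells for Ccl6, 93 for Ccl4, 58 for Ccl9 and 26 for Ccl3.

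Cells of a class were then divided by a single other gene. Neutrophil-like cells of the library labelled IRE 7 days with a UMI of Cxcl3, a chemokine that attracts neutrophils, held 1207 CPM of Ccl3 against 419.9 CPM in cells without, a ratio of 2.88 (2.49 to 3.33), and 2139 against 833 CPM of Ccl4, a ratio of 2.57 (2.32 to 2.85). The ratios for Ccl6 and Ccl9 were smaller, at 1.76 (1.67 to 1.86) and 1.55 (1.39 to 1.74). Median depth was 466 UMIs with Cxcl3 and 416.5 UMIs without. In cells with Ifit1, Ifit3 or Isg15, genes induced by interferon, Ccl4 was 1.37 times as high (1.24 to 1.51) and Ccl6 0.879 times (0.828 to 0.934), so that Ccl3 and Ccl4 were not alike in this respect, Ccl3 being at 0.922 (0.796 to 1.07).

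Dividing macrophage-like cells at 7 days by Arg1 set Ccl6 and Ccl9 apart from the other pair. Dividing them by Gpnmb or Trem2 did not. Arg1, Gpnmb and Trem2 are themselves markers of this gate. With Arg1, the arginase of wound macrophages, 614 cells held 8486 CPM of Ccl6, and 54 cells without it 2647 CPM, a ratio of 3.21 (2.57 to 4.05). Ccl9 followed with 2.35 (1.73 to 3.28), whereas Ccl3 at 0.985 (0.608 to 1.70) and Ccl4 at 0.782 (0.520 to 1.22) had intervals that included 1. With Gpnmb or Trem2, genes of lipid-laden macrophages, all 4 members were lower, at 0.600 for Ccl3, 0.681 for Ccl4, 0.640 for Ccl6 and 0.502 for Ccl9, with no interval reaching 1. In macrophage-like cells of control, 788 of 1006 carried Gpnmb or Trem2, and the ratios there were 1.16, 0.567, 0.955 and 1.14, all with intervals that included 1.

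The genes whose levels were most like those of the members were taken over 26 sums, each of 1 class in 1 library, by Pearson's correlation of log2(CPM + 10) among 8024 other genes. The sums share libraries, and the correlations are a description. Ccl3 was most like the neutrophil attractant Cxcl2 (0.87), Ccl4 (0.87), Agpat9 (0.87), Mif (0.86) and Niacr1 (0.85). Ccl4 was most like the cytokine gene Osm (0.90), Ccl3, the granule proteoglycan gene Srgn (0.85), Gp49a (0.85) and Fxyd5 (0.84). Ccl6 was most like the haem oxygenase gene Hmox1 (0.91), Gp49a (0.90), Atp6v0b (0.90), Lilrb4 (0.90) and the endotoxin co-receptor gene Cd14 (0.90). Ccl9 was most like Rnh1 (0.90), the urokinase receptor gene Plaur (0.89), Lgals3 (0.89), Cstb (0.88) and the complement receptor gene C5ar1 (0.88). Among the members themselves the correlation was 0.87 for Ccl3 with Ccl4 and 0.86 for Ccl6 with Ccl9, and 0.65 to 0.72 for the other pairs.

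Other CC ligands did not all share the pattern. Of 20 ligand genes on the list, 14 had at least 50 UMIs in the control and 7 day libraries together, and 8 of these, the 4 members among them, were at least 2-fold higher at 7 days and 2 at least 2-fold lower, with a median log2 ratio of 2.21 against -0.21 over all genes. Over all genes, 8.79% were at least 2-fold higher and 21.8% at least 2-fold lower in that pair. The monocyte attractants Ccl2 (46.9 CPM in control, 17.5 CPM at 1 day, 1615 CPM at 7 days), Ccl7 (27.8, 8.84 and 641 CPM) and Ccl12 (18.1, 2.13 and 163 CPM) went the way of the members, and Ccl24 was 2.38 times as high at 7 days as in control. Ccl5, the neighbour of Ccl9 on the chromosome and a product of T and NK cells, stood at 471, 372 and 455 CPM, a ratio of 0.966 at 7 days to control. Ccl8 was highest in control, at 92.0 CPM against 3.27 CPM at 1 day and 10.1 CPM at 7 days.

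The receptor gene Ccr1 moved in the direction of the members. It stood at 41.9 CPM in control, 11.1 CPM at 1 day and 640.4 CPM at 7 days, a ratio of 15.3 at 7 days to control, and neutrophil-like cells led it with 193, 363 and 818 CPM. Ccr2, the receptor of Ccl2, stood at 411, 78.9 and 749.9 CPM and was led by monocyte-like cells, for which it is a gating marker.

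On a list of early inflammatory genes driven by NF-kB, 8 of 15 were at least 2-fold higher at 7 days than in control and none lower, with a median log2 ratio of 1.48. Cxcl2 rose from 58.0 to 5222 CPM, Il1b from 125 to 1687 CPM and the inhibitor gene Nfkbia from 456 to 1366 CPM, whereas Icam1 at 62.9 and 60.8 CPM and Nfkb1 at 57.5 and 46.4 CPM differed little. On the list of 14 handling genes, 9 were at least 2-fold higher and 1 lower, with a median log2 ratio of 1.31. Within neutrophil-like cells the handling genes took 0.277% of UMIs in control and 0.568% at 7 days, and within macrophage-like cells 0.204% and 0.356%.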

How the data were processed

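Drop-seq counts of 3 libraries were used. The authors aligned the reads with STAR (version 2.5.2a in the submitters' processing notes, which list the build hg19 although the gene symbols are those of mouse) and deposited UMI counts per gene and barcode without normalization. According to the file headers, the Drop-seq tools counted sense reads over coding and UTR sequence. The headers name a minimum of 200 genes, but the smallest deposited barcode has 11. The summary files of the same barcodes hold their transcript counts, as deposited by the authors. No gene coordinates were taken from the files, and promoter windows and gene order are those of RefSeq (GRCm38.p6).

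Barcodes with at least 200 genes were kept. Levels are UMIs per 1000000 UMIs of a class or library, without scaling by transcript length, since Drop-seq counts molecules from their 3′ ends. Sums carry exact Poisson intervals, shares exact binomial (Clopper-Pearson) intervals and ratios conditional exact binomial intervals. A count of 0 was set to a floor of 3 counts. Classes were gated on lists of marker genes, and Chil3 and Fcmr were read under their older symbols Chi3l3 and Faim3. S100a8 and S100a9 counted as 1 marker, which was decided after the data had been seen. The hepatocyte list was not used for gating. In all, 15 classes were gated, and doublets were not called but approached by leaving out the 5% of barcodes with the most UMIs. Cells were thinned to 300 UMIs without replacement (seed 1). With 1 library per label no test was possible, and 2-fold differences among genes with at least 50 UMIs are given as background. The members, gene lists and divisions of classes were chosen with earlier results of these data known. Named genes are the members, the genes of the lists with at least 50 UMIs and, per member, the 5 most alike. A gene of the receptor list is not reported here. Ratios and intervals were tested on simulated counts. Python 3.11.15 with numpy 2.4.6, scipy 1.17.1, pandas 2.3.3 and Biopython 1.88 was used.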

Additional observations from a re-analysis of the deposited data

Results flagged for a closer look

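Barcodes with fewer than 200 genes, which no comparison of cells used, carried the chemokines at 7 days far above their level in control. The ratio of the library labelled IRE 7 days to control in these barcodes was 31.4 for Ccl3 (25.2 to 39.6), 42.1 for Ccl4 (34.3 to 52.3), 17.8 for Ccl6 (16.3 to 19.3) and 12.6 for Ccl9 (10.5 to 15.2). Ccl3 reached 1275 CPM and Ccl4 1962 CPM there, above their 813 and 1486 CPM in neutrophil-like cells, while Ccl9 stood at 813 CPM (769 to 860). This level of Ccl9 was below the macrophage-, monocyte- and neutrophil-like gates. Its interval overlapped that of Kupffer-like cells at 844 CPM (685 to 1030). The 10 neutrophil markers summed to 100158 CPM in these barcodes at 7 days and to 9812 CPM in control.

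Ccl4 differed in direction between classes in the library labelled IRE 1 day against control, at 4.32 times the control level in T-like cells and 2.30 times in endothelial-like cells but 0.509 times in Kupffer-like cells. The difference between the classes was not tested. A single cell held 12 of the 17 UMIs of the T-like cells, and the endothelial-like cells of control held 8 UMIs. Ccl6 in the same pair of libraries stood at 1.48 times control in neutrophil-like cells and at 0.254 times in T-like cells, the latter from 3 UMIs, and this difference was not tested either. A single cell held 10 of the 53 UMIs of Ccl6 in the neutrophil-like cells at 1 day.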

How the results depend on the processing

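As log2 ratios, the values of the library labelled IRE 7 days against control over all cells were 3.44 for Ccl3, 4.08 for Ccl4, 3.24 for Ccl6 and 3.45 for Ccl9, and none of the 16 ratios reversed or moved by over 1.5 times under any alternative. With every deposited barcode, the log2 ratios were 4.00 for Ccl3, 4.57 for Ccl4 and 3.41 for Ccl6. With at least 400 detected genes they were 3.15, 3.92 and 3.05. With at most 20% mitochondrial UMIs, Ccl6 moved to 2.98 and Ccl9 to 3.26. With mitochondrial, haemoglobin and hepatocyte-marker genes left out of the total, the ratios were 3.17 for Ccl3, 3.81 for Ccl4, 2.97 for Ccl6 and 3.18 for Ccl9. Against control at 1 day, Ccl6 at -0.60 moved to -0.51 with at least 400 genes, -0.48 with at most 20% mitochondrial UMIs and -0.52 with the reduced total. Within gates, Ccl9 in neutrophil-like cells at 7 days moved from 2.69 to 3.20 when S100a8 and S100a9 counted as 2 markers, an alternative chosen after seeing the data, and in macrophage-like cells from 3.17 to 3.39 without the 5% of barcodes with the most UMIs. Ccl3 at 1 day against control, at -1.04, lay short of a 2-fold fall with at least 400 genes (-0.99), at most 20% mitochondrial UMIs and the reduced total (both -0.95). The causes were not tested. The other 47 values stayed within the counting interval of the ratio as reported. No paired analysis was possible because each label has a single library. Differences between animals, digestions or runs cannot be told apart from those between labels, and the counts of the library labelled IRE 1 day limit its neutrophil-, monocyte- and T-like values.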

Other observations

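Basophil- and mast-like cells were too few for the comparisons above, with 11 cells in control and none in the other libraries, yet held all 4 members. They held 6 UMIs of Ccl3, 4 of Ccl4, 13 of Ccl6 and 12 of Ccl9 among their cells, and 6 of the 11 cells had a UMI of Ccl9. The counting interval of Ccl3, 319 to 1894 CPM, lay above that of NK-like cells of the same library (129 to 270 CPM). Those of Ccl6, 1004 to 3223 CPM, and Ccl9, 899 to 3039 CPM, lay above macrophage-like cells (849 to 962 and 309 to 379 CPM). For Ccl4, 158 to 1485 CPM overlapped the NK-like interval (186 to 348 CPM). A single cell held 7 of the 13 UMIs of Ccl6.

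The 24 macrophage-like cells of the library labelled IRE 1 day held 17 UMIs of Ccl6 and 14 of Ccl9, or 1257 CPM (733 to 2013) and 1036 CPM (566 to 1738). A single cell held 11 of the 17 UMIs of Ccl6, and only 5 cells had any. Ccl9 was found in 7 cells, with at most 4 UMIs in a cell. In control, 34 neutrophil-like cells had a UMI of Camp, Ltf or Ngp, granule genes of immature neutrophils. They held 0 UMIs of Ccl3 or Ccl4, which allows up to 3 counts. The other 344 cells held 23 and 36 UMIs, or 90.9 and 142 CPM. Ccl6 stood at 451 CPM against 751 CPM, a ratio of 0.601 (0.305 to 1.08). Since 451 CPM came from only 12 UMIs, the 34 cells were too shallow in sum to show absence of Ccl3 and Ccl4. Monocyte-like cells of control with Chi3l3 held 0.319 times the Ccl4 of those without (0.113 to 0.731), from 6 and 67 UMIs, while Ccl3, Ccl6 and Ccl9 had intervals that included 1.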
